A study of Mus musculus with 192 samples.

Results

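The genes described here are 4 interferon-induced transmembrane genes, Ifitm1, Ifitm2, Ifitm3 and Ifitm6, and Bst2, which encodes tetherin. They were chosen by name as 5 of the 23481 gene rows measured in dendritic cells grown from mouse bone marrow, which take up microbes and present them to T cells. Of these 5, Ifitm3, Bst2 and Ifitm2 passed the filter on low counts and were tested among 4720 genes. Ifitm1, with 551 counts over all libraries, and Ifitm6, with 55, did not pass and are described by pooled levels.

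The cells came from bone marrow of female C57BL/6J mice 6 to 8 weeks old, were grown with GM-CSF at 15 ng/mL, plated at 100000 per well and exposed to ligands of pattern recognition receptors for 6 hours. No group carried a genetic change. Ctrl is the control group. The ligands keep their label names: LPS is lipopolysaccharide, cGAMP is 3',3'-cGAMP and Zymosan is described as depleted, and the others are PAM, HMW, SeV and CpGB. The 7 ligands were given alone, in all 21 pairs and in all 35 triplets, which with Ctrl makes 64 groups of 3 libraries. Doses are not used here, and nothing says whether the 3 libraries of a group came from separate mice or cultures, so p-values measure only the spread between these libraries.

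IFITM proteins are small membrane proteins that hinder the fusion of enveloped viruses with the cell, IFITM3 mainly in endosomes and IFITM1 mainly at the cell surface. Tetherin works at the other end of the viral cycle and holds newly budded enveloped particles on the cell that made them. Both are known as interferon-stimulated genes. Ligand sensing makes a cell release type I interferon, which signals through the receptor chains Ifnar1 and Ifnar2 to interferon-stimulated response elements in promoters. In the mouse, Bst2 also serves as a marker of plasmacytoid dendritic cells at rest.

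In GRCm38 (GENCODE M21), Ifitm3 lies on the minus strand at chr7:141009586-141010770, Ifitm2 on the minus strand at chr7:140954837-140955987, Ifitm1 on the plus strand at chr7:140967221-140969825 and Ifitm6 on the minus strand at chr7:141015699-141017924. Bst2 lies apart from them, on the minus strand at chr8:71534255-71537456. Ifitm2 overlaps the annotated gene Gm45717 on the same strand, and the counts cannot divide reads between them. Of the 629 stretches of 50 bases in Ifitm3 transcripts, 20 (3.18%) also occur in Ifitm2 and 15 (2.38%) in Ifitm1. Reads from these stretches could have been placed on either gene, and the share of reads that fell there was not measured. No such stretch of Bst2 occurs in an Ifitm gene.

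The promoter windows of the 3 tested genes are shown because Ifitm3 and Bst2 moved together and Ifitm2 did not. Each runs from 250 to 27 bases before the RefSeq transcript start (GRCm38.p6, minus strand, 224 bases), at chr7:141010771-141010994 for Ifitm3, chr8:71537499-71537722 for Bst2 and chr7:140955988-140956211 for Ifitm2. Capitals mark matches to the motifs searched.
Ifitm3: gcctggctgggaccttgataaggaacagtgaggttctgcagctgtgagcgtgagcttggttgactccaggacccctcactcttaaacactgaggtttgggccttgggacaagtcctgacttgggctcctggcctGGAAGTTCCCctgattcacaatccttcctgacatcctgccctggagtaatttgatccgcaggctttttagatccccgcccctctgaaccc
Bst2: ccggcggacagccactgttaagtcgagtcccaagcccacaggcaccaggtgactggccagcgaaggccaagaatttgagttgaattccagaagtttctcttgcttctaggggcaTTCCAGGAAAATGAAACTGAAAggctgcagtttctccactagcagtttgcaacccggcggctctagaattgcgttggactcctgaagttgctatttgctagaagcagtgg
Ifitm2: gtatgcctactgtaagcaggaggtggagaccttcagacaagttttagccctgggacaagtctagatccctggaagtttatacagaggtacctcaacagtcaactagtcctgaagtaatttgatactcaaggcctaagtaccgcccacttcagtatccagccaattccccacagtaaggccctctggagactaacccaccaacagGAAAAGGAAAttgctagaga

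The search covered both strands of all 32851 RefSeq windows of the same length. The interferon-stimulated response element core, searched as GAAANNGAAA, was in 2.67% of them. Bst2 held 2 overlapping matches, from 130 to 121 and from 124 to 115 bases before the start, and Ifitm2 held 1, from 46 to 37. The gamma-activated site, searched as TTCNNNGAA, was in 6.35% of windows and matched Bst2 from 136 to 128, overlapping the first response element match. An NF-kB-type motif, searched as GGGANNTTCC, was in 1.05% of windows and matched Ifitm3 on the opposite strand from 116 to 107. Its stricter form GGGANTTTCC was in 0.338% of windows and in none of the 3. A match is a description of letters only, and none says only that these letters are not in this window.

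Libraries held 46564 to 610234 unique molecular identifier (UMI) counts with a median of 171616, and Ctrl had the lowest group mean, 73431 ± 14389 (SD, n = 3). Levels below are CPM, counts scaled to a common library size. The single libraries held 13 to 1944 counts of Ifitm3, 6 to 643 of Bst2 and 2 to 94 of Ifitm2. Of the labelled cell type's markers, the dendritic cell list (9 of 9 genes with counts, among them Itgax, H2-Aa and Flt3) summed to 5050 CPM in Ctrl and at most 7105 in PAM + HMW + SeV. Macrophage markers summed to between 1653 and 3427 CPM (3334 in Ctrl, 2087 with LPS and 2092 with PAM) and neutrophil markers to between 603 and 1046, while those of mast, B and T or NK cells stayed at or under 22.1, with Mcpt4, Tpsb2 and Cd3e at 0. Replicate 3 of PAM + HMW + SeV, the deepest library, and replicate 1 of PAM + HMW + Zymosan stood above their groups for Ifitm3, and results that rest on them are given without them too.

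LPS, SeV, cGAMP and CpGB alone each raised Ifitm3 and Bst2, HMW raised Ifitm3 by less and PAM raised Bst2 by less, and no test of Ifitm2 with a single ligand against Ctrl passed. Ifitm3 stood at 222, 162 and 173 CPM in the 3 Ctrl libraries. It stood at 1988, 1895 and 1736 CPM with LPS, which is 3.34 higher on the log2 scale (SE 0.23; edgeR quasi-likelihood p after Benjamini-Hochberg adjustment = 9.74e-31). All LPS libraries lay far above all Ctrl libraries, where 21.8% of all tested genes had all 3 LPS libraries above Ctrl. With CpGB the level was 1000, 1302 and 1757 CPM (log2 fold change 2.91, adjusted p = 1.05e-23), a wide spread that stayed clear of Ctrl. Of all tested genes, 18.6% had all 3 CpGB libraries above Ctrl. SeV gave 1328, 1341 and 1332 CPM (2.86, adjusted p = 1.47e-22) and cGAMP gave 1495, 1274 and 1252 CPM (2.85, adjusted p = 1.36e-22).

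With HMW, Ifitm3 reached 366, 547 and 293 CPM, 1.15 above Ctrl in log2 (SE 0.28, adjusted p = 0.0076). The HMW libraries lay above Ctrl, as was so for 9.09% of all tested genes, and below every library of the 4 stronger ligands. Replicate 2 was the highest of the HMW libraries. Without HMW replicate 2 the value was 0.86 (adjusted p = 0.329) and without Ctrl replicate 3 it was 1.13 (adjusted p = 0.0859). PAM (256, 297 and 272 CPM) and Zymosan (221, 378 and 243 CPM) did not pass the test. Their log2 fold changes were 0.59 (95% interval -7.15e-05 to 1.18, adjusted p = 0.189) and 0.62 (0.02 to 1.21, adjusted p = 0.228).

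Bst2 rose with the same 4 ligands. Its Ctrl libraries held 125, 74.8 and 134 CPM, from 29 counts in all. LPS gave 1102, 609.6 and 890.4 CPM (2.92 in log2, SE 0.28, adjusted p = 1.31e-19), the widest spread of the single ligands. CpGB gave 592, 577 and 830.0 CPM (2.58, adjusted p = 5.98e-15), SeV 679, 651 and 624 CPM (2.51, adjusted p = 7.90e-14) and cGAMP 596, 584 and 638 CPM (2.42, adjusted p = 7.57e-13). With PAM the 3 libraries held 223, 256 and 200.0 CPM, all above Ctrl, as was so for 16.6% of all tested genes. The rise of 1.01 in log2 (SE 0.34, adjusted p = 0.0238) lay just past the fold threshold of 1. It passed neither without PAM replicate 2 (0.95, adjusted p = 0.0713), nor without Ctrl replicate 2 (0.84, adjusted p = 0.133), nor with DESeq2 (0.88, adjusted p = 0.0587). HMW gave 274, 296 and 191 CPM with a larger log2 fold change of 1.15 (SE 0.33), but its adjusted p of 0.0514 missed 0.05. Without HMW replicate 3 the value was 1.36 (adjusted p = 0.0105), and with the replicate number as a block it was 1.17 (adjusted p = 0.0119). Zymosan, at 101, 134 and 131 CPM, overlapped Ctrl (0.14, 95% interval -0.61 to 0.90).

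Ifitm2 varied within a narrow range. Its Ctrl level was 79.7 ± 15.5 CPM (SD, n = 3), and the single-ligand means ran from 60.5 CPM with HMW to 115 CPM with CpGB. The log2 fold changes ran from -0.32 (HMW, 95% interval -1.16 to 0.52) to 0.59 (LPS, 95% interval -0.16 to 1.34). The Ctrl libraries held 20 counts in all, so these intervals are wide.

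In all, 10 of the 21 tests of a member against Ctrl were called higher (adjusted p under 0.05 and log2 fold change of at least 1), 5 each for Ifitm3 and Bst2, and none lower. Over all tested genes 8.7% of such tests were called higher. By ligand the share of genes called higher was 14.6% for LPS, 11.7% for cGAMP, 10.8% for CpGB, 10.5% for SeV, 8.01% for PAM, 4.43% for Zymosan and 0.953% for HMW. These comparisons share the Ctrl libraries.

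**Figure D1:**
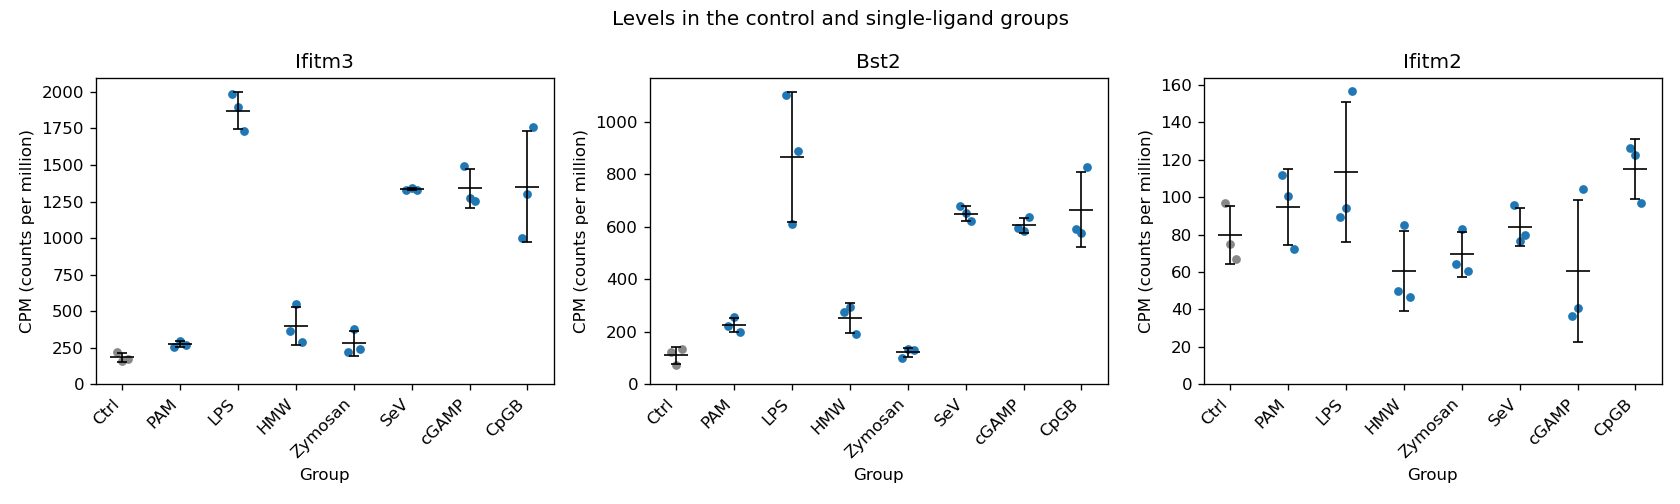
CPM of Ifitm3, Bst2 and Ifitm2 (1 panel each, y axis from 0) in Ctrl and the 7 single-ligand groups (x axis); points are libraries, the long bar is the mean and the whiskers are 1 SD (n = 3). For Ifitm3 and Bst2 the LPS, SeV, cGAMP and CpGB libraries stand above all others, while for Ifitm2 the groups overlap.

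The 4 stronger ligands differed little from each other. LPS gave more Ifitm3 than SeV (log2 difference 0.49, 95% interval 0.18 to 0.79, adjusted p = 0.023) and cGAMP (0.49, 0.18 to 0.79, adjusted p = 0.0198), and the difference from CpGB missed the threshold (0.43, 0.13 to 0.73, adjusted p = 0.0579). For Bst2, LPS exceeded cGAMP (0.50, adjusted p = 0.0426), though 1 LPS library lay within the cGAMP range. SeV and cGAMP differed by 0.00 for Ifitm3 (95% interval -0.32 to 0.32) and by 0.09 for Bst2 (-0.27 to 0.46). SeV and CpGB differed by -0.05 for Ifitm3 (-0.36 to 0.26) and by -0.06 for Bst2 (-0.42 to 0.29), and cGAMP and CpGB by -0.05 (-0.37 to 0.26) and -0.16 (-0.52 to 0.20). Of the 21 comparisons between ligands, 14 passed for Ifitm3, 15 for Bst2 and 1 for Ifitm2, in which LPS stood above HMW (0.91, adjusted p = 0.023). Over all genes 8.85% of such tests passed as higher and 9.99% as lower.

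Among the weaker ligands, PAM and HMW both exceeded Zymosan for Bst2, by 0.86 (adjusted p = 0.0207) and 1.01 (adjusted p = 0.0062), while for Ifitm3 PAM differed from Zymosan by -0.03 (95% interval -0.50 to 0.43) and HMW by 0.53 (0.09 to 0.96, adjusted p = 0.137). Whether the genes differ in this was not tested.

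Other genes of the interferon pathway were followed in the same comparisons. Of 15 tested genes of interferon signalling, 11 were called higher with SeV (median log2 fold change of the list 2.49), 10 with cGAMP (2.55), 9 with LPS (1.46), 7 with CpGB (0.87), 4 with PAM (0.70) and 3 each with HMW (0.48) and Zymosan (0.42), and none lower. The median over all tested genes lay between -0.09 and 0.03, and the share of them called higher between 0.953% (HMW) and 14.6% (LPS). All 15 genes of a set of common interferon-response genes were called higher with each of the 4 stronger ligands, 5 with HMW, 2 with PAM and none with Zymosan. Ifnb1, which encodes interferon beta, parted these ligands: it stood at 12.0 ± 2.17 CPM in Ctrl, 251 ± 8.63 with SeV (log2 fold change 4.33, adjusted p = 1.91e-10) and 196 ± 78.8 with cGAMP (3.93, adjusted p = 5.73e-08), but at 13.4 ± 11.8 with LPS (adjusted p = 0.858) and 22.5 ± 14.7 with CpGB (adjusted p = 0.682) (SD, n = 3 each). LPS and CpGB gave raised Ifitm3 and Bst2 at 6 hours beside an Ifnb1 level that did not pass the test.

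Irf7, a transcription factor that feeds interferon production, rose with HMW (1.30, adjusted p = 0.0039) and with the 4 stronger ligands (2.86 to 3.58), and its value with PAM was 0.89. Isg15, an interferon-induced ubiquitin-like protein, rose with the 4 stronger ligands (2.24 to 3.08) and had log2 fold changes of 0.19 with PAM and 0.48 with HMW.

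Among 9 tested genes that act at membranes against viruses or with IFITM proteins, 5 were called higher with CpGB (list median log2 fold change 1.01). LPS (0.78) and cGAMP (0.19) each had 4, SeV (0.60) 3, PAM (0.28) and Zymosan (0.19) 2 each, and HMW (0.68) none. Over all tested genes the share called higher was 10.8% with CpGB, 14.6% with LPS, 11.7% with cGAMP and 10.5% with SeV. For PAM, Zymosan and HMW it was 8.01%, 4.43% and 0.953%. Ly6e, a membrane-anchored protein also induced by interferon, rose with SeV (601 to 1805 CPM, log2 fold change 1.60, adjusted p = 7.32e-09), cGAMP (1.35), CpGB (1.26) and LPS (1.15). Zmpste24, a protease that works with IFITM proteins, did not pass the filter on low counts and had 3 to 16 counts in Ctrl and each single-ligand group.

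Every combination but PAM + Zymosan raised both Ifitm3 and Bst2 past the threshold. Against Ctrl, each gene was called higher in 20 of 21 pairs and in 35 of 35 triplets. Over all genes 13.7% of tests were called higher for pairs and 15.7% for triplets. In PAM + Zymosan, Ifitm3 held 253, 265 and 259.7 CPM (log2 fold change 0.50, adjusted p = 0.317) and Bst2 147, 221 and 255 CPM (0.94, adjusted p = 0.0461, below the fold threshold). Triplets ran from 2.40 to 3.72 for Ifitm3 (median 3.35) and from 2.03 to 3.06 for Bst2 (median 2.69), against medians of 3.03 and 2.55 for pairs.

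The 64 groups fell in an order that followed LPS and then SeV, cGAMP and CpGB. Group means of Ifitm3 ran from 1750.2 to 2594 CPM in the 22 groups that held LPS, from 788 to 2363 in the 34 that held SeV, cGAMP or CpGB without LPS, and from 259 to 1508 in the 7 with PAM, HMW or Zymosan only. The same ranges for Bst2 were 658 to 1104, 458 to 913 and 122 to 649 CPM. Of the 21 highest means 20 held LPS for Ifitm3 and 16 for Bst2. Neighbours in this order were mostly closer than their spread: of 63 neighbouring gaps, 59 were smaller than the larger SD of both groups for Ifitm3, 59 for Bst2 and 63 for Ifitm2.

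Both genes were highest with PAM + LPS. Its libraries held 1768, 2960 and 3056 CPM of Ifitm3 and 948, 1095 and 1269 CPM of Bst2, and replicate 1 was the lowest for both. The highest groups that followed for Ifitm3 were LPS + Zymosan, at 2391 ± 333 CPM, and PAM + HMW + SeV, at 2363 ± 1369 CPM (SD, n = 3). The last of these rests on replicate 3, with 3936 CPM against 1434 and 1719 in the other libraries.

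**Figure D2:**
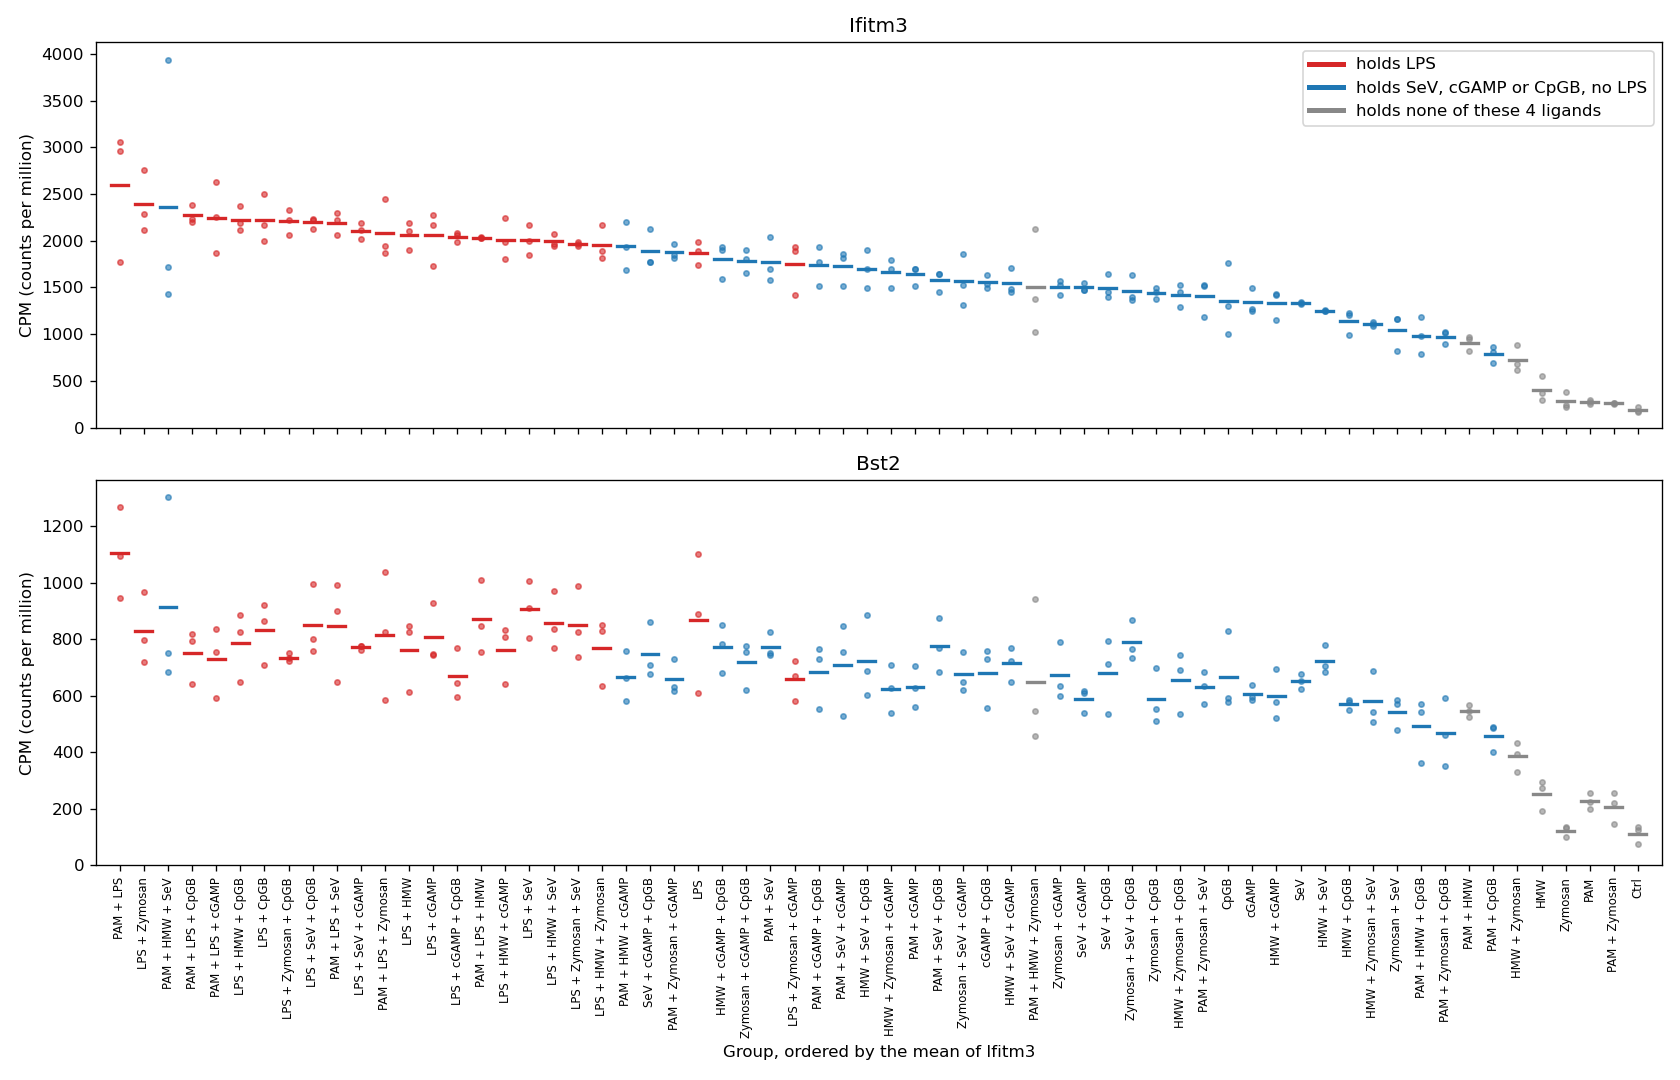
CPM of Ifitm3 (top) and Bst2 (bottom) in all 64 groups (x axis), ordered by the mean of Ifitm3; points are libraries and bars are means (n = 3), in red for groups that hold LPS, blue for SeV, cGAMP or CpGB without LPS, and grey for the rest. Groups with LPS lie mostly at the left, and PAM + HMW + Zymosan is the one grey group above 1000 CPM of Ifitm3.

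Across the 64 group means of log2 CPM, Ifitm3 and Bst2 were closely alike (r = 0.962), and Ifitm2 was unlike both (0.295 with Ifitm3 and 0.291 with Bst2). The groups share ligands, so these are descriptions with n = 64 and no test. By the rule of the 3 most alike tested genes, Ifitm3 was nearest to Tap1 (0.975), which carries peptides to MHC class I, Parp12 (0.970), an interferon-induced ADP-ribosyltransferase, and Ifi205 (0.966). Bst2 was nearest to Ifitm3, to Ddx58 (0.955), the RNA sensor RIG-I, and to Parp12 (0.952). Ifitm2 was nearest to Fcgr2b (0.870), an inhibitory receptor for IgG, Cp (0.841), which encodes ceruloplasmin, and Dtx2 (0.827). The correlation with Ifnb1 was 0.516 for Ifitm3, 0.463 for Bst2 and -0.18 for Ifitm2.

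**Figure D3:**
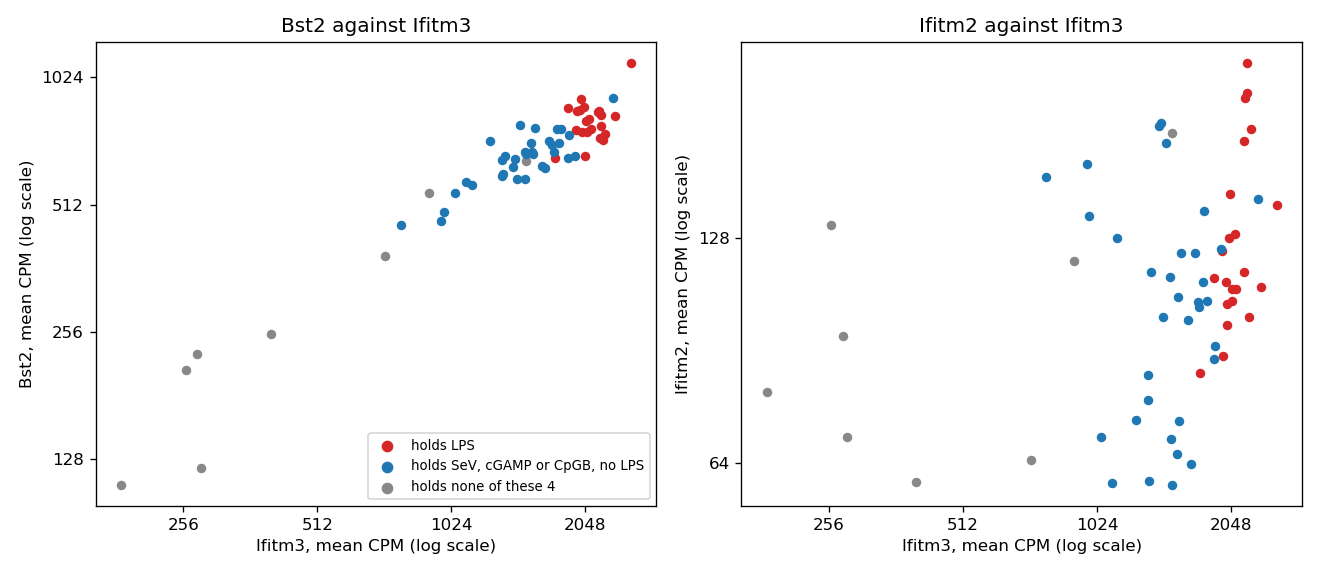
Group means of Bst2 (left) and Ifitm2 (right) against Ifitm3, in CPM on log axes, 1 point per group (64 groups), coloured by the ligands held. Bst2 rises with Ifitm3 along 1 band (r = 0.962), and Ifitm2 spreads widely at every level of Ifitm3 (r = 0.295).

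Each ligand was also compared with its absence over the 22 backgrounds it was added to (Ctrl, 6 single ligands and 15 pairs). Averaged in this way all 7 ligands raised Ifitm3: LPS by 1.23 in log2 (SE 0.04, adjusted p = 1.17e-87), cGAMP by 0.80, SeV by 0.71, CpGB by 0.62, HMW by 0.34, PAM by 0.23 and Zymosan by 0.12 (adjusted p = 0.0058). The rise with Zymosan missed the threshold with library size alone (0.069, adjusted p = 0.0886) and after thinning to equal depth (0.084, adjusted p = 0.132). Single HMW steps raised Ifitm3 on 4 of 4 backgrounds without LPS, SeV, cGAMP or CpGB and on 0 of 18 with them. Zymosan steps raised it on 2 of 4 and 0 of 18, and PAM steps raised it on 5 backgrounds and lowered it on 2. For Bst2, HMW and PAM steps each passed as higher on 3 of 4 and 0 of 18. Bst2 rose with LPS (0.82, SE 0.04, adjusted p = 3.33e-49), SeV (0.58), cGAMP (0.45), CpGB (0.42), HMW (0.26) and PAM (0.19, which was 0.07 with an adjusted p of 0.170 with library size alone and 0.13 with an adjusted p of 0.0566 without replicate 3 of every group), and its value with Zymosan was 0.00 (95% interval -0.09 to 0.08). Ifitm2 had another set: it rose with CpGB (0.64, SE 0.07, adjusted p = 6.77e-17), LPS (0.50, adjusted p = 2.14e-11) and PAM (0.50, adjusted p = 2.66e-11), and its values with SeV (0.03) and cGAMP (-0.15, adjusted p = 0.0704) did not pass. Without replicate 3 of every group cGAMP lowered it (-0.29, adjusted p = 0.0044), as it did with DESeq2 (-0.18, adjusted p = 0.0281). Of 21 such tests 16 were called higher and none lower, where 21.1% of all tests were called higher and 19.2% lower.

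Steps that raised Ifitm3 or Bst2 were more frequent on backgrounds without LPS, SeV, cGAMP or CpGB than on those with them. In 40 steps onto backgrounds without LPS, SeV, cGAMP or CpGB, the added ligand raised Ifitm3 in 35 cases, Bst2 in 32 and Ifitm2 in 5 (adjusted p under 0.05), where 10.2% of all genes' tests passed as higher. In the 114 steps onto backgrounds that held at least 1 of these 4, it raised Ifitm3 in 20 cases, Bst2 in 5 and Ifitm2 in 9, where 2.87% passed as higher. Ifitm3 and Bst2 fell in 2 cases each there, where 1.61% passed as lower. The median step for Ifitm3 was 1.57 without and 0.15 with one of the 4, and for Bst2 1.21 and 0.05. Of the 20 later steps that raised Ifitm3, 11 were additions of LPS. The 4 are the ligands with the largest single-ligand rises of Ifitm3 and Bst2 in these libraries. Steps onto Ctrl are among the 40. Each of the 4 was added to 7 backgrounds without the others and 15 with at least 1. For PAM, HMW and Zymosan these were 4 and 18. The 2 sets therefore mix background and added ligand, which were not separated here.

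**Figure D4:**
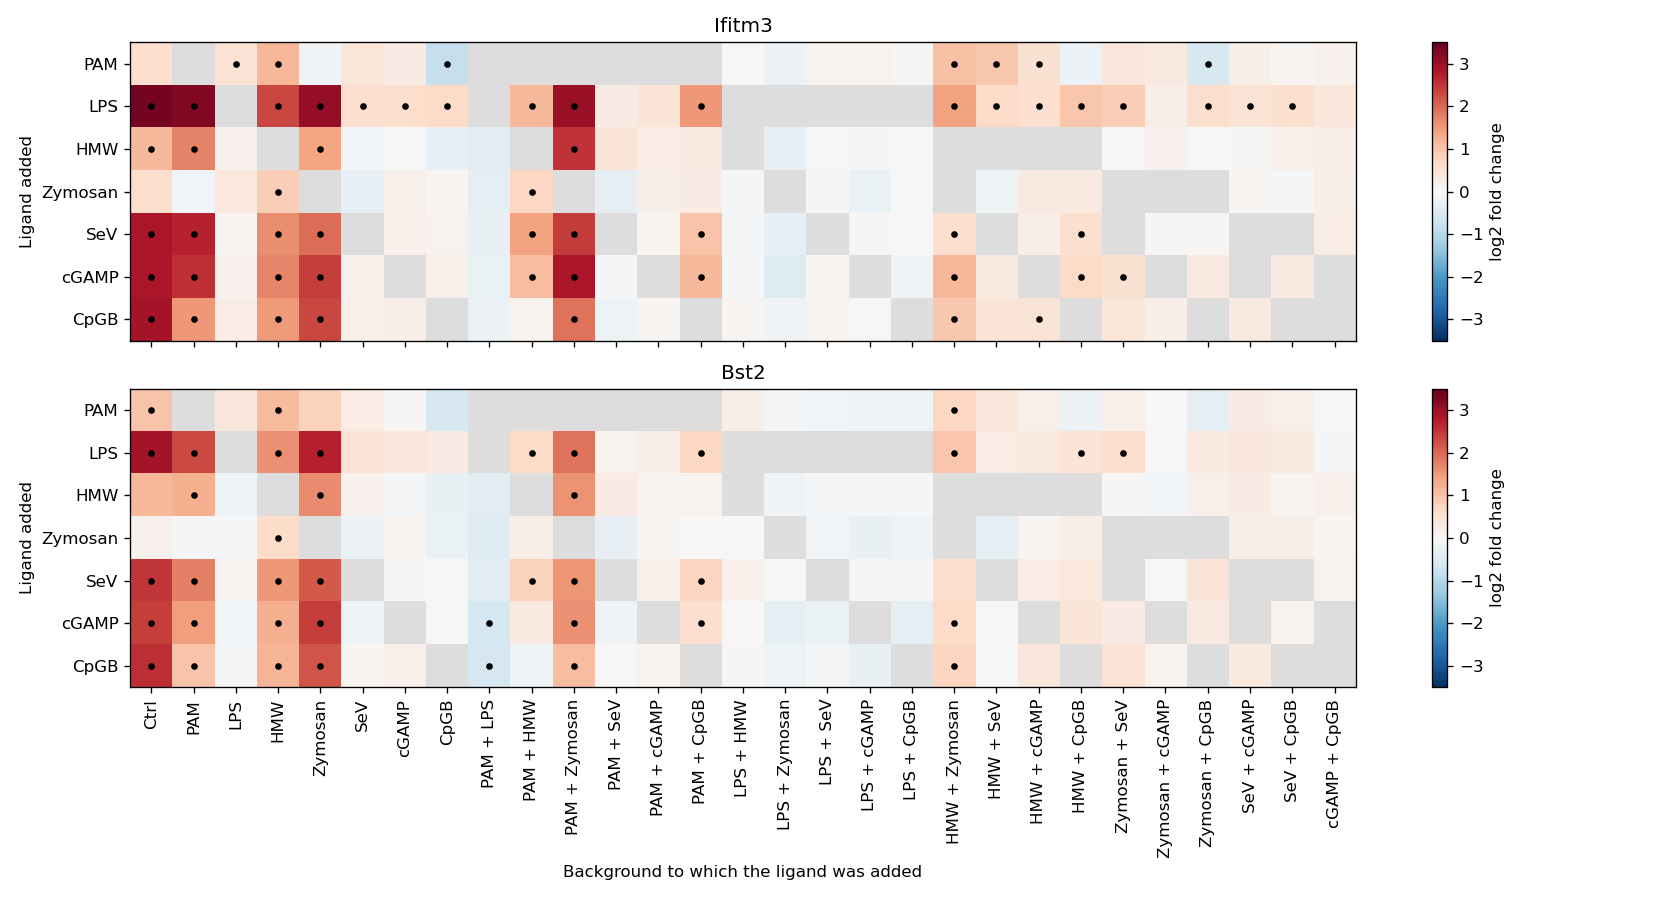
Log2 fold change of Ifitm3 (top) and Bst2 (bottom) when the ligand of a row is added to the background of a column; red is higher, blue is lower, dots mark an adjusted p under 0.05 and plain grey cells are combinations that hold the ligand already. Dots crowd the columns Ctrl, PAM, HMW, Zymosan and their pairs, and LPS keeps its dots over many other columns for Ifitm3.

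Among LPS, SeV, cGAMP and CpGB, pairs fell far short of the sum of the single log2 effects. The pair interaction (pair minus both singles plus Ctrl, in log2) lay between -2.75 and -2.65 for Ifitm3 and between -2.63 and -2.41 for Bst2 in all 6 of these pairs. LPS + SeV, for example, held 1851, 1995 and 2171 CPM of Ifitm3, next to 1873 ± 127 with LPS and 1334 ± 6.68 with SeV alone (interaction -2.75, SE 0.29, adjusted p = 2.21e-15). SeV + cGAMP held 1476, 1478 and 1547 CPM, hardly above either ligand. PAM + CpGB (Ifitm3 -1.39, Bst2 -1.57) and HMW + CpGB (-1.42 and -1.40) also passed, and HMW + SeV for Ifitm3 (-1.24, adjusted p = 0.0323). The last of these missed the threshold without Ctrl replicate 2 (-1.22, adjusted p = 0.108) or Ctrl replicate 3 (-1.23, adjusted p = 0.144), and HMW + CpGB for Bst2 missed it without any 1 of the Ctrl libraries (adjusted p from 0.0555 to 0.163). For Ifitm3, HMW + CpGB missed it without replicate 2 of every group (-1.15, adjusted p = 0.292), and PAM + CpGB without replicate 3 (-1.15, adjusted p = 0.0504). In all 17 of 63 interactions passed, all of them negative, against 3.5% negative and 1.08% positive over all genes. No interaction of Ifitm2 passed. Interactions contain the Ctrl libraries, whose few counts widen their errors.

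PAM + HMW exceeded both of its single ligands for Ifitm3 and Bst2. It gave 821, 966 and 944 CPM of Ifitm3, above every library with PAM or HMW alone, and the smaller of its differences was 1.17 in log2 (adjusted p = 4.27e-07). For Bst2 it gave 569, 523 and 546 CPM, also above every such library, with a smaller difference of 1.11 (adjusted p = 2.12e-05). These were 2 of the 63 tests of a pair against both of its single ligands, the only ones past a difference of 1, where 0.353% of all tests passed and 0.657% for PAM + HMW. Without replicate 3 of every group the smaller differences were 0.98 for Ifitm3 and 0.96 for Bst2, short of 1. With the adjusted p alone, Ifitm3 also exceeded both ligands in HMW + Zymosan (680.4, 614 and 887 CPM, difference 0.86, adjusted p = 0.0017) and in PAM + LPS (0.50, adjusted p = 0.0341), and Ifitm2 in LPS + CpGB (0.91, adjusted p = 0.0417), where 0.805% of all tests passed. The Ifitm3 difference between PAM + LPS and LPS passed in 5 of 11 alternatives and was 0.29 (adjusted p = 0.599) without replicate 3 of every group. That between HMW + Zymosan and HMW was 0.48 (adjusted p = 0.204) without replicate 3 of every group. The Ifitm2 difference between LPS + CpGB and LPS missed the threshold with DESeq2 (0.91, adjusted p = 0.0588), without replicate 1 of every group (0.91, adjusted p = 0.0991) and without replicate 2 (0.66, adjusted p = 0.510). The interactions of PAM + HMW themselves did not pass (Ifitm3 0.58, SE 0.36; Bst2 0.11, SE 0.42).

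PAM + HMW + Zymosan held 2121, 1024 and 1379 CPM of Ifitm3, more than any other group without the 4 stronger ligands. It exceeded all 3 of its pairs by at least 0.71 in log2 (adjusted p = 0.0038), short of the difference of 1 required for a call, and replicate 1 lay above the others. Without that library, Zymosan added to PAM + HMW raised Ifitm3 by 0.42 (adjusted p = 0.147). None of the 105 tests of a triplet against its 3 pairs was called by edgeR, 1 passed with the adjusted p alone and 3 lay above all 3 pairs with an unadjusted p under 0.05. Over all tests 0.0115% were called and 0.0297% passed with the adjusted p alone.

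PAM raised Ifitm3 on HMW and lowered it on CpGB. CpGB alone gave 1000, 1302 and 1757 CPM, and PAM + CpGB gave 697, 859 and 808 CPM, below every CpGB library (-0.80 in log2, SE 0.17, adjusted p = 8.33e-04). On Zymosan + CpGB, at 1450, 1496 and 1377 CPM, PAM gave 1021, 890 and 1009 CPM (-0.57, SE 0.16, adjusted p = 0.0301). Without replicate 3 of every group the falls were -0.60 (adjusted p = 0.165) and -0.63 (adjusted p = 0.0849). These were the 2 of 22 PAM steps in which Ifitm3 fell, and 5 rose, where 4.21% of all PAM steps passed as higher and 2.6% as lower. PAM raised Ifitm3 on HMW (1.17), HMW + Zymosan (1.02), HMW + SeV (0.95), HMW + cGAMP (0.54) and LPS (0.50). The step on HMW + Zymosan was 0.72 (adjusted p = 0.0014) without replicate 1 of PAM + HMW + Zymosan. That on HMW + SeV was 0.34 (adjusted p = 0.178) without the deepest library, and without replicate 3 of every group that on HMW + cGAMP was 0.33 (adjusted p = 0.238). The step on LPS passed in 5 of 11 alternatives and missed, among others, with DESeq2 (0.43, adjusted p = 0.116) and library size alone (0.31, adjusted p = 0.235). In the fit of all libraries, the step on LPS and that on CpGB differed by 1.30 (SE 0.23, adjusted p = 1.12e-05). These 2 steps were picked because their signs differed in the same data, so this p is not independent support. For Bst2 the value on CpGB was -0.57, and it did not pass.

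**Figure D5:**
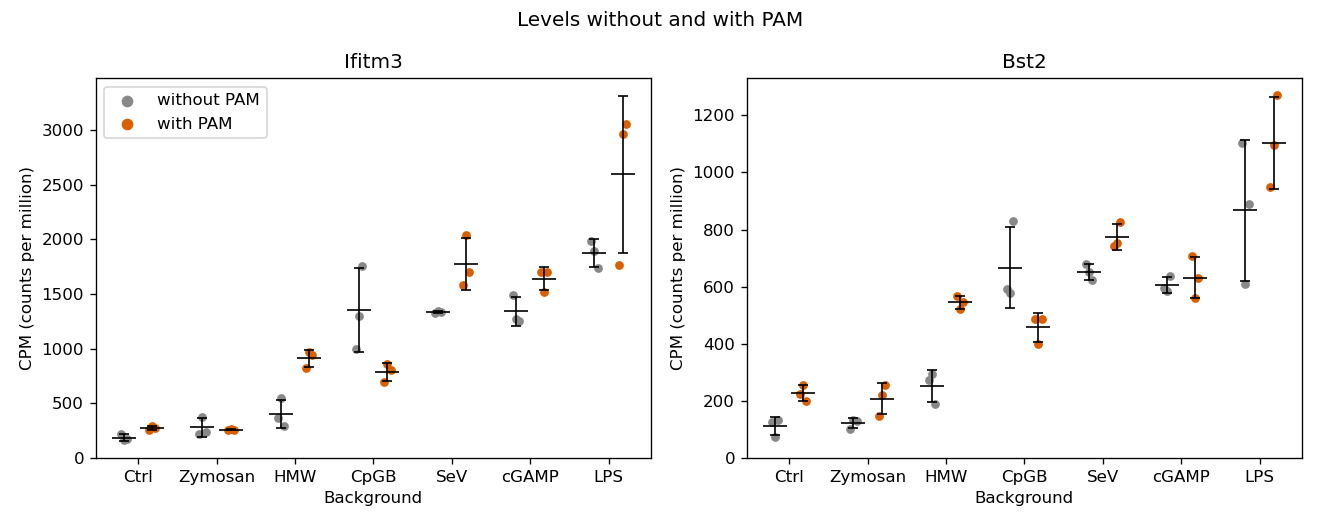
CPM of Ifitm3 (left) and Bst2 (right) on 7 backgrounds (x axis) without PAM (grey) and with PAM (orange); points are libraries, the long bar is the mean and whiskers are 1 SD (n = 3). PAM libraries lie above on HMW and below on CpGB for Ifitm3.

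Bst2 fell when cGAMP or CpGB joined the pair in which it was highest. PAM + LPS held 948, 1095 and 1269 CPM, cGAMP brought it to 836, 593 and 757 CPM (-0.62 in log2, SE 0.17, adjusted p = 0.0088) and CpGB to 796, 641 and 820 CPM (-0.59, SE 0.16, adjusted p = 0.0465). In neither case did the libraries overlap. Without replicate 2 of every group the values were -0.47 (adjusted p = 0.185) and -0.45 (adjusted p = 0.471), and without replicate 3 they were -0.52 (adjusted p = 0.280) and -0.54 (adjusted p = 0.633). The fall with CpGB also missed the threshold with DESeq2 (-0.55, adjusted p = 0.0753) and passed in 5 of 11 alternatives. Of all tested genes 2.92% fell with cGAMP on this pair and 0.699% with CpGB. The steps of HMW (-0.36), SeV (-0.40) and Zymosan (-0.46) onto PAM + LPS did not pass, and neither did any step of Ifitm3 there, which ran from -0.38 with HMW (95% interval -0.66 to -0.09, adjusted p = 0.346) to -0.21 with CpGB (-0.50 to 0.07).

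Ifitm2 was highest where LPS and CpGB met. LPS + CpGB held 176, 255 and 226 CPM against 97.0, 74.8 and 67.2 in Ctrl (1.50 in log2, SE 0.34, adjusted p = 1.44e-04), the only one of 21 pairs called, where 13.7% of all pair tests were called higher. Of the 35 triplets 9 were called, from LPS + HMW + CpGB at 200.3 ± 29.3 CPM (1.34) to PAM + Zymosan + CpGB at 161 ± 47.2 CPM (1.08), where 15.7% of all triplet tests were called higher. Of these 10 groups 8 held CpGB, 6 Zymosan, 5 LPS, 4 PAM, 3 HMW, 3 SeV and none cGAMP, and each ligand is in 21 combinations. PAM + HMW + Zymosan (151, 175 and 205 CPM) was called without any of the 4 ligands that raised Ifitm3 most, as PAM added to HMW + Zymosan (63.6, 64.9 and 65.7 CPM) raised it by 1.45 (SE 0.28, adjusted p = 2.18e-05). The lowest group was Zymosan + cGAMP at 59.9 ± 18.8 CPM.

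Ifitm1 and Ifitm6 were rare. Ifitm1 had 5 counts in Ctrl, 19.5 CPM pooled (exact Poisson 95% interval 6.33 to 45.5, counting error only), and its highest group was LPS + HMW + CpGB at 43.4 CPM (28.6 to 63.1). Pooled over the 66 libraries with CpGB it stood at 21.7 CPM (19.0 to 24.7), and over the 126 without at 14.6 CPM, with an interval that ends at 16.3. With LPS it stood at 19.5 CPM (17.0 to 22.3) and without at 15.7 CPM, whose interval ends at 17.4. With HMW it stood at 14.3 CPM (12.3 to 16.5) and without at 18.8 (16.9 to 20.8). The intervals with and without SeV overlapped (13.6 to 18.4 and 15.8 to 19.4), as did those of cGAMP (14.4 to 19.4 and 15.4 to 18.9). Ifitm6 was found in 46 of 192 libraries and reached 2.69 CPM pooled with SeV (1.80 to 3.86) and 1.20 CPM without (0.78 to 1.76), intervals that cover counting error only. Pooled levels weigh deep libraries more. In a fit without the filter on low counts (14862 genes), Ifitm1 rose when CpGB was added over its 22 backgrounds (0.67 in log2, SE 0.18, adjusted p = 0.0034) and when LPS was (0.55, SE 0.20, adjusted p = 0.0382). In that fit 10.9% of all genes were called in either direction for CpGB and 19.9% for LPS. The values with Zymosan (0.49, adjusted p = 0.0537), PAM (0.21), SeV (0.02), cGAMP (0.32) and HMW (-0.37, adjusted p = 0.518) did not pass. No single ligand against Ctrl passed for Ifitm1, among them LPS (0.43, SE 0.81) and CpGB, whose value had the other sign (-1.04, SE 0.99). For Ifitm6 that fit gave no usable error over the 22 backgrounds, and no single ligand against Ctrl passed (SE from 1.62 with SeV to 1.96 with Zymosan).

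Since Bst2 marks plasmacytoid dendritic cells, a list of 7 other markers of these cells was summed. It stood at 53.8 CPM in Ctrl, 25.9 with Zymosan, 36.0 with PAM, 53.8 with HMW, 91.3 with CpGB, 143 with SeV, 154 with cGAMP, 166 with LPS and 234 with PAM + LPS, its highest. Nearly all of it was Tcf4, a transcription factor with 4128 of the 4325 counts, which stood at 42.8 CPM in Ctrl and 225 with PAM + LPS. Siglech, a defining surface marker, had 35 counts over all libraries, of which 2 in Ctrl (7.82 CPM), stood at 2.98 CPM with LPS and was at 0 with SeV, cGAMP and CpGB, and the other 5 markers stayed under 11.6 CPM in every group. Monocyte markers (4 of 5 genes in the file, all with counts) summed to 209 CPM in Ctrl, 340.0 with LPS, 304 with SeV, 187 with cGAMP, 276 with CpGB, 540.4 with PAM + LPS and 831 with PAM + HMW + SeV, their highest. The part of these lists in the Ifitm3 and Bst2 results was not tested. In these bulk libraries more cells of a type and more RNA per cell cannot be told apart.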

How the data were processed

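Gene expression was read by RNA sequencing in 192 libraries. Per the labels' protocols, RNA was reverse transcribed with template switching, barcoded cDNA was pooled and tagmented, and sequencing was on an Illumina NextSeq. The submitters' processing notes name BWA 0.7.15 and mm10. The values the authors deposited are whole-number UMI counts per gene symbol, not normalized; the rule for collapsing UMIs and for reads that match several genes is not given in the sources used here.

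The analysis used edgeR 4.0.16 in R 4.3.3: filterByExpr by group, TMM scaling, and 1 quasi-likelihood model over all libraries with a coefficient per group (128 residual degrees of freedom). Each contrast was tested two-sided and adjusted by Benjamini-Hochberg over 4720 genes. Calls against Ctrl needed an adjusted p under 0.05 and a log2 change of 1 or more, and all other calls the adjusted p alone, except that a combination called above its parts had to exceed each by 1. For such a call the largest of its p-values was adjusted. CPM used TMM-scaled library sizes, and errors of log2 fold changes are SE. Correlations used group means of log2 CPM with a prior count of 2. Rare genes have exact Poisson intervals on pooled counts. Symbols matched GENCODE M21 names for 21911 of 23481 rows. The tests were checked on simulated counts. No 2 libraries were identical.

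The members and the gene lists were chosen with earlier results of these data known. All 5 members are named, with the 3 tested genes most correlated with each tested member, and Ifnb1, Irf7, Ly6e, Zmpste24 and Isg15 from the lists; 1 further listed gene is not reported here. Alternatives were other scalings, DESeq2 1.42.0, no filter, thinned libraries, a replicate block, other prior counts and left-out libraries. Proteins are not shown here.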

Additional observations from a re-analysis of the deposited data

Results flagged for a closer look

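Of the backgrounds with at most 1 ligand on which a step rose, each was compared with every background on which the same ligand lowered the same gene. This gave 12 comparisons, each step passing its own test, and the difference between both steps was tested in the same model over all genes. In the fit of all libraries PAM raised Ifitm3 on LPS and lowered it on CpGB, a difference of 1.3 in log2 (adjusted p = 1.12e-05), and on Zymosan + CpGB, a difference of 1.06 (adjusted p = 2.18e-04). On HMW, where PAM also raised Ifitm3, the differences from those 2 backgrounds were 1.97 (adjusted p = 1.43e-11) and 1.74 (adjusted p = 9.01e-10). The rise on LPS held in 5 of 11 alternatives and the falls on CpGB and Zymosan + CpGB in 10 and 8.

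cGAMP raised Bst2 on Ctrl, PAM, HMW and Zymosan and lowered it on PAM + LPS. The differences were 3.04, 2.08, 1.86 and 3.03 (largest adjusted p = 1.11e-09). CpGB did the same, with differences of 3.16, 1.59, 1.76 and 2.8 (largest adjusted p = 2.66e-05). The falls on PAM + LPS held in 8 of 11 alternatives for cGAMP and in 5 for CpGB. Both ligands also raised Bst2 on some pairs, which were not compared in this way. The falls behind all 12 were 2 of 114 steps for each gene, where 1.61% of such steps passed as lower over all genes. These steps were picked because their signs differed, and 8 of the 12 share the PAM + LPS libraries, where Bst2 had its highest mean.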

How the results depend on the processing

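Of the calls made, 8 of 10 for single ligands, 14 of 16 for ligands averaged over backgrounds, 13 of 17 interactions and 54 of 100 single steps held under every alternative run for them. Pairs above both single ligands counted 2, against 5 with the adjusted p alone, 0 with library size alone (the PAM + HMW differences then fell short) and 0 to 3 when 1 replicate number was left out of every group. The single steps called ran from 68 to 86 in that case and were 71 after thinning every library to 46564 counts, a loss of depth that comes with fewer calls.

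Thinning also turned Ifitm2 with PAM added to HMW, called in the fit of all counts, to -0.066. This step also missed the threshold with library size alone (0.71, adjusted p = 0.0797) and without replicate 3 of every group (0.68, adjusted p = 0.274). The other reversed values were near 0 and passed no test. Thinned, Ifitm2 was -0.0095 with LPS, 0.23 with Zymosan and -0.010 with HMW averaged over backgrounds. Ifitm2 with SeV was -0.036 by DESeq2 and by RLE factors and -0.10 with library size alone, where SeV averaged over backgrounds gave -0.041. Bst2 with Zymosan averaged over backgrounds was 0.013 without the filter on low counts. Leaving out libraries moved it from -0.033 to 0.023, Bst2 with Zymosan from -0.084 to 0.37, Ifitm2 with cGAMP from -1.10 to 0.14 and Ifitm2 with Zymosan from -0.32 to 0.064.

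In the 84 same-number pairs compared, which are not all such pairs, replicate numbers showed no clear pairing. Of these pairs, 0 correlated over 0.1 (mean 0.0098, against -0.0049 for other numbers). The replicate block gave 11 single-ligand calls against 10, adding Bst2 with HMW (1.17), 18 interactions against 17 and 108 single steps against 100, and ended no call among those named. Averaged over backgrounds, Ifitm2 fell with cGAMP by DESeq2 (-0.18, adjusted p = 0.0281), with RLE factors (-0.18, adjusted p = 0.0221) and with library size alone (-0.28, adjusted p = 2.54e-04), and Ifitm3 with Zymosan and Bst2 with PAM missed the threshold with library size alone (0.069, adjusted p = 0.0886, and 0.066, adjusted p = 0.170). The fits without replicate 3 of PAM + HMW + SeV and without replicate 1 of PAM + HMW + Zymosan were chosen after seeing the data; each ended 3 steps, and Bst2 with HMW passed in both (1.16). Few Ctrl counts of Bst2 and Ifitm2 limit what could be detected against Ctrl.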
